A study of Mus musculus with 11 samples.

Results

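Mitochondrial ribosomal protein genes were taken as the genes whose platform symbol begins with Mrpl (large subunit) or Mrps (small subunit), and 71 of the 76 such genes on the array were measured, among 8234 genes tested in all. Of these 71 genes, 44 were Mrpl and 27 were Mrps. A gene was kept when a probe was above background (detection p under 0.01) on at least 5 arrays, and its brightest kept probe, by the mean of the 11 arrays, stands for it. Of the 71 genes, 69 were above background on all 11 arrays, and Mrpl51 and Mrps27 on all but 1 wild type array, so none was kept through 1 group alone. Mrpl19, Mrpl32, Mrpl45, Mrpl57 and Mrps14 had 7 probes, none above background on any array, and have no value here.

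The samples were villi of the small intestine from C57Bl/6J mice aged 5 months. The Villin-Gremlin group (5 arrays) carries a transgene in which the Villin promoter, active in intestinal epithelial cells, drives Gremlin, a secreted protein that binds bone morphogenetic proteins. The control group (6 arrays) was wild type, likewise C57Bl/6J and aged 5 months. The study's design names 6 samples in each group, and the sixth Villin-Gremlin sample was not analysed here. The stretch of intestine, any pooling and the mouse behind each array are not stated in the labels. The spread that p-values rest on is that among these arrays and may be technical in part.

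Mitochondria hold their own ribosomes, which translate the few proteins encoded in mitochondrial DNA, all of them subunits of the respiratory chain and of ATP synthase. Every protein of these ribosomes is encoded in the nucleus, made on cytosolic ribosomes and imported. Many belong to protein families shared with bacteria, while others occur only in mitochondrial ribosomes. The small subunit reads the messenger RNA and the large subunit joins the amino acids, and villus enterocytes are rich in mitochondria, which power nutrient uptake.

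The arrays gave median raw signals of 157 to 207, with 13536 to 14808 of 45281 probes above background. Grem1, the gene of the transgene product, read 13.77 to 14.08 (log2) on the Villin-Gremlin arrays. Among wild type arrays it was above background on 2 of 6 and read 4.98 to 8.99, the highest on wild type 5, so no size is given for the difference (limma adjusted p = 1.46e-06). Epithelial markers were bright, with a median wild type level of 14.19 (log2) over 10 measured genes. Of these the enterocyte genes Lct, Krt20 and Vil1 fell by 2.06, 0.47 and 0.34 on the log2 scale, Krt19 rose 4.89-fold and 6 did not pass. Over all genes tested 33.9% passed, 17.9% higher and 15.98% lower. The 4 epithelial calls of 10 are near that share, with a median difference of -0.01, and are not read as a shift of the list. Of 10 measured T cell markers 9 fell, and their mean level ran from 8.07 to 9.05 (log2) on Villin-Gremlin arrays and from 10.04 to 10.96 on wild type arrays. All 10 were above background on every array but Cd7, which was so on 2 of 5 Villin-Gremlin arrays, and Cd8b1, the marker that did not pass, differed by -0.02. Of 13 measured G2 and mitosis genes 12 rose, with mean levels of 7.81 to 8.73 against 6.76 to 7.55. Among those 12, Top2a, Aurkb and Cdk1 were above background on only 3, 1 and 4 of the 6 wild type arrays, and 9 rose without them. The 7 crypt markers did not move together: Lrig1, Sox9 and Prom1 rose, Axin2 fell by 1.84 on the log2 scale and 3 did not pass. Prom1 was above background on 4 of the 6 wild type arrays. The part of these marker differences in the results below was not tested, and in whole villi fewer cells of a type and less RNA per cell cannot be told apart. On principal component 2 the arrays farthest from the rest of their groups were Villin-Gremlin 5 (-27.83) and wild type 1 (-27.85).

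Genes of the mitochondrial ribosome were mostly higher in Villin-Gremlin villi. Of the 71 measured genes 37 rose and 1, Mrpl27, fell (limma, Benjamini-Hochberg adjusted p under 0.05 over all genes tested), while 33 did not pass. Over all genes tested 33.9% passed, 17.9% higher and 15.98% lower, against 52.1% higher and 1.41% lower among the mitochondrial ribosomal protein genes. The median difference was 0.39 (log2, Villin-Gremlin minus wild type), or 1.31-fold, and the median over all genes was -0.0001. The differences were small gene by gene. The 37 increases ran from 1.24 to 2.94-fold, 22 were at least 1.5-fold and 1, Mrps6, was at least 2-fold. In 25 of the 71 genes (35.2%) every Villin-Gremlin array lay above every wild type array, against 10.9% of all genes tested. All 25 were among the 37 that rose (67.6%), and over all genes that rose the share was 59.9%. Array scaling set how many passed: with median scaling in place of quantile normalization 15 rose and 1 fell, beside 919 higher and 1217 lower over all genes tested (11.2% and 14.8%). No gene that passed changed its direction there, and the median difference was 0.28, with the median over all genes at -0.09. Median scaling aligned each array on its median over all 45281 probes, most of which were not above background. When arrays Villin-Gremlin 5 and wild type 1 were both left out, 38 rose and 0 fell, beside 1459 higher and 1259 lower over all genes tested. Of the 38 calls, 29 held with each array left out in turn, and those of Mrps5, Mrpl20, Mrpl2, Mrpl27, Mrpl33, Mrps30, Mrps28, Mrps12 and Mrps25 were lost at least once.

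**Figure D1:**
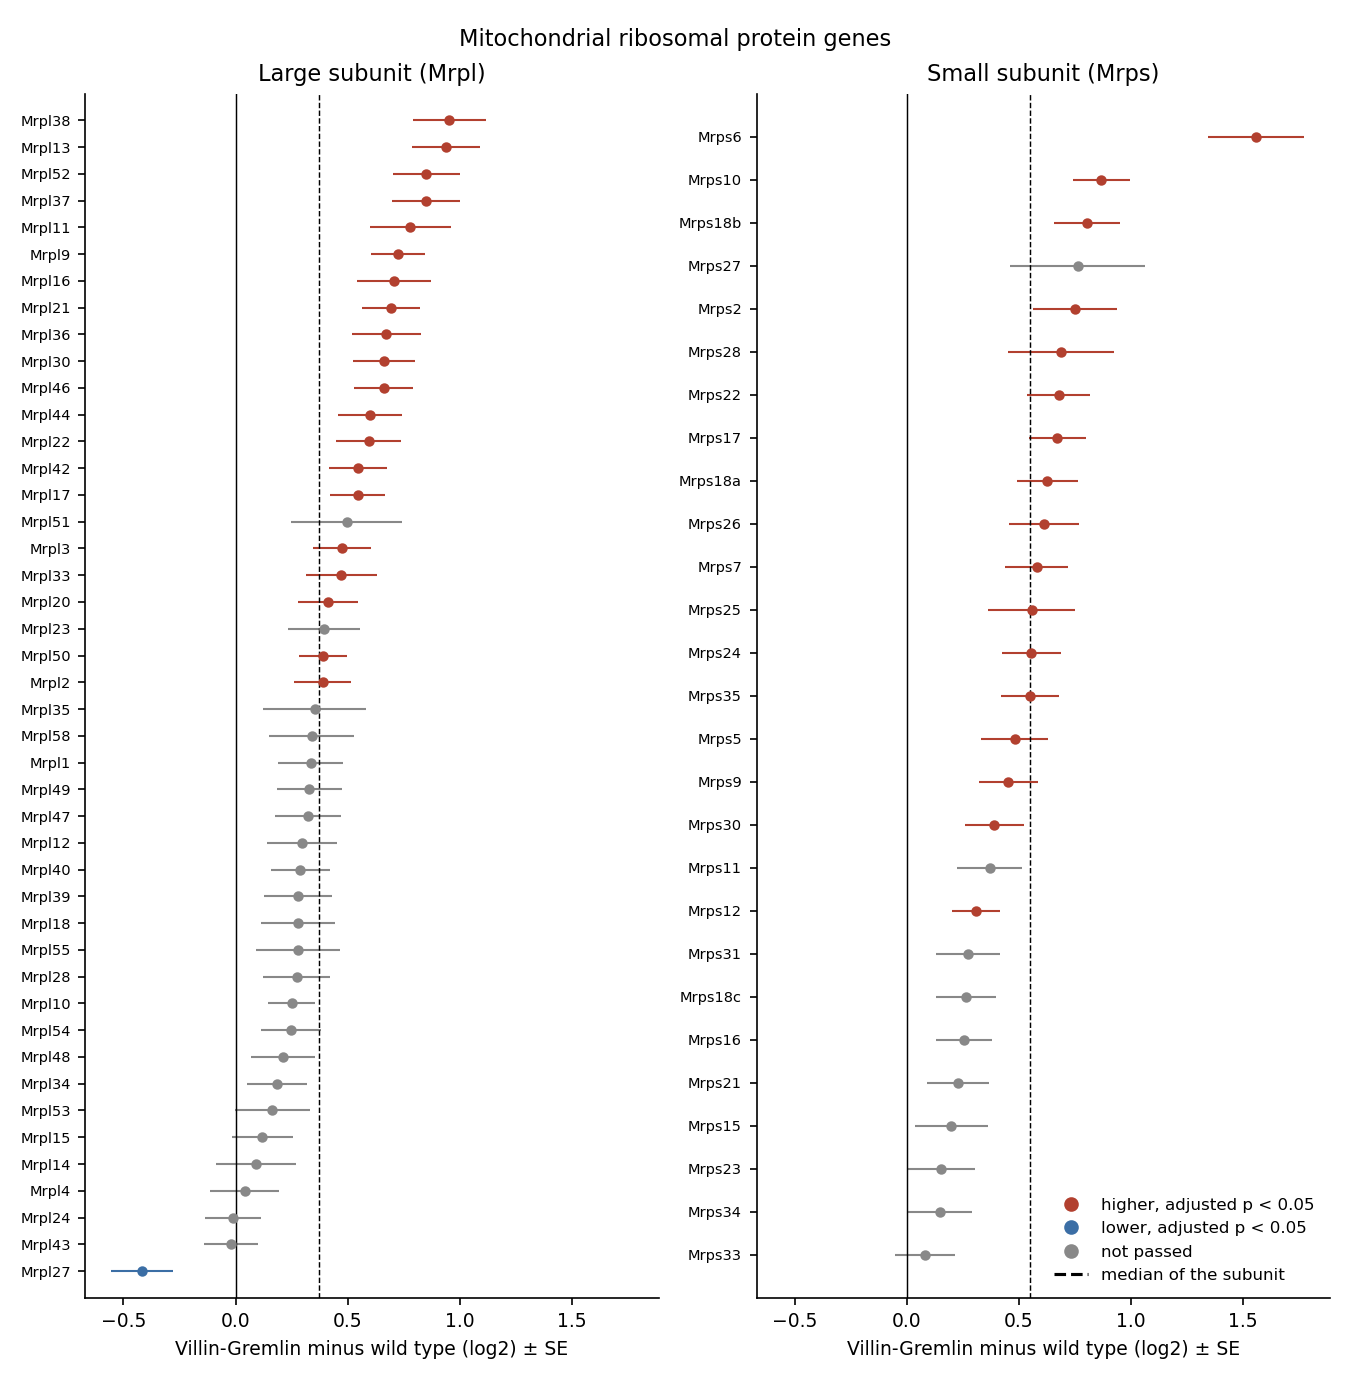
Difference between Villin-Gremlin and wild type villi (log2, horizontal axis) for the 44 Mrpl genes (left) and the 27 Mrps genes (right), with bars of 1 SE from the limma fit of 5 against 6 arrays. Red genes rose and the blue gene, Mrpl27, fell at an adjusted p under 0.05; grey genes did not pass, and dashed lines mark the medians, 0.37 for Mrpl and 0.55 for Mrps.

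The largest difference belonged to Mrps6, a small subunit protein of a family shared with bacteria. Its normalized signal (log2) read 10.09, 10.17, 11.15, 10.34 and 10.83 on Villin-Gremlin arrays 1 to 5, and in wild type villi it ran from 8.52 through a median of 8.94 to 9.51. The groups did not overlap, and Villin-Gremlin 3 and 5 stood highest. The gene rose 2.94-fold (log2 difference 1.56 ± 0.21, SE, limma adjusted p = 1.62e-04). In the RefSeq gene table the span of Mrps6 overlaps Slc5a3, a myo-inositol transporter gene, whose 1 named probe was above background on 0 of 11 arrays. Such an overlap is not particular to Mrps6, as 18 of the 71 genes had one. Some of the overlapping genes were above background on 11 arrays, among them Wdfy1 at Mrpl44 and Klc4 at Mrpl2. The part of overlapping genes in the signals was not tested.

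Other small subunit genes followed at smaller sizes. Mrps10, also of a bacterial family, read 10.07, 9.93, 10.21, 10.02 and 9.64 on the Villin-Gremlin arrays and 8.96 to 9.35 in wild type villi, with a wild type median of 9.04. The lowest Villin-Gremlin array was number 5, still above all wild type arrays, and the fold was 1.83 (0.87 ± 0.13, limma adjusted p = 2.78e-04). All 3 kept probes of Mrps10 passed. Mrps18b is 1 of 3 related Mrps18 genes and encodes a protein counted as specific to mitochondria. It read 10.82, 10.36, 11.17, 10.64 and 10.71 against 9.75 to 10.19 in wild type villi (median 9.90), with no overlap, and rose 1.75-fold (0.80 ± 0.15, limma adjusted p = 0.00127). Its relative Mrps18a, which in mammalian ribosome structures sits in the large subunit, rose 1.55-fold (0.63 ± 0.14, limma adjusted p = 0.00351; 0.0513 with median scaling). The third relative, Mrps18c, differed by 0.26 ± 0.13 and did not pass (adjusted p = 0.149 in the same limma fit).

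Mrps17 and Mrps22 completed the small subunit genes of smallest p. Mrps17, of a bacterial family, read 11.05, 10.89, 11.32, 10.99 and 10.93 on the Villin-Gremlin arrays and at most 10.62 on wild type arrays, a 1.59-fold rise (0.67 ± 0.13, limma adjusted p = 0.00149). Mrps22, found only in mitochondrial ribosomes, read 9.91, 9.65, 9.95, 9.72 and 9.57. Its wild type values ran from 8.79 to 9.55 with a median of 9.05, so that Villin-Gremlin 5 and the highest wild type array, number 6, nearly met. The rise was 1.60-fold (0.68 ± 0.14, limma adjusted p = 0.00250). The remaining small subunit genes that rose were Mrps24, Mrps35, Mrps7, Mrps2, Mrps26, Mrps9, Mrps5, Mrps30, Mrps28, Mrps12 and Mrps25.

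Among large subunit genes, Mrpl38 and Mrpl13 had the largest increases. Mrpl38, a protein of mitochondrial ribosomes alone, read 10.81, 10.75, 11.22, 10.33 and 10.35 on the Villin-Gremlin arrays and 9.55 to 9.96 on wild type arrays (median 9.73). It rose 1.94-fold (0.95 ± 0.16, limma adjusted p = 6.51e-04). Mrpl13, of a bacterial family, read 11.38, 11.46, 11.89, 11.64 and 11.36 against 10.19 to 10.85 (median 10.69) and rose 1.92-fold (0.94 ± 0.15, limma adjusted p = 5.07e-04). For both genes Villin-Gremlin 3 was the highest array and the groups did not overlap. The second kept probe of Mrpl13, dimmer, rose by 1.24 ± 0.24.

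Mrpl52, Mrpl37 and Mrpl9 rose by similar amounts. Mrpl52, specific to mitochondria, read 10.88, 10.88, 11.43, 11.07 and 11.31 against at most 10.49 in wild type villi (1.81-fold, 0.85 ± 0.15, limma adjusted p = 7.97e-04). Mrpl37, likewise specific to mitochondria, read 11.12, 11.07, 11.37, 10.89 and 10.72 against at most 10.53 (1.80-fold, 0.85 ± 0.15, limma adjusted p = 9.69e-04). Mrpl9, of a bacterial family, read 10.74, 10.88, 10.97, 10.77 and 11.10 against at most 10.35 (1.65-fold, 0.72 ± 0.12, limma adjusted p = 5.82e-04). In all 3 the groups stood apart, and Mrpl9 and Mrpl37 passed on both of their kept probes.

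Mrpl21, Mrpl46, Mrpl30 and Mrpl17 rose 1.62, 1.58, 1.58 and 1.46-fold, again with no overlap between the groups (limma adjusted p = 0.00127, 0.00194, 0.00253 and 0.00411). Mrpl46 is specific to mitochondria and the other three have bacterial relatives. Mrpl17 lost its call with median scaling (adjusted p = 0.107 by limma). The other large subunit genes that rose were Mrpl36, Mrpl11, Mrpl16, Mrpl42, Mrpl44, Mrpl22, Mrpl50, Mrpl3, Mrpl20, Mrpl2 and Mrpl33.

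Mrpl27 was the 1 gene of the group that fell. In bacteria its relative lies beside the site where peptide bonds form. Its signal read 11.53, 10.96, 11.51, 11.50 and 11.09 on the Villin-Gremlin arrays and ran from 11.54 to 11.91 in wild type villi, with a median of 11.73. Arrays Villin-Gremlin 2 and 5 were low, and the other Villin-Gremlin arrays lay just under the lowest wild type array. The difference was -0.42 ± 0.14 (log2, SE; limma adjusted p = 0.0335; groups apart on the lower side in 9.58% of all genes). The call was lost without Villin-Gremlin 2 or 5 or wild type 3, 4 or 5 (limma adjusted p = 0.0851, 0.0706, 0.0667, 0.0697 and 0.0593). It was also lost when arrays 5 (Villin-Gremlin) and 1 (wild type) were left out together (0.0812 by limma).

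**Figure D2:**
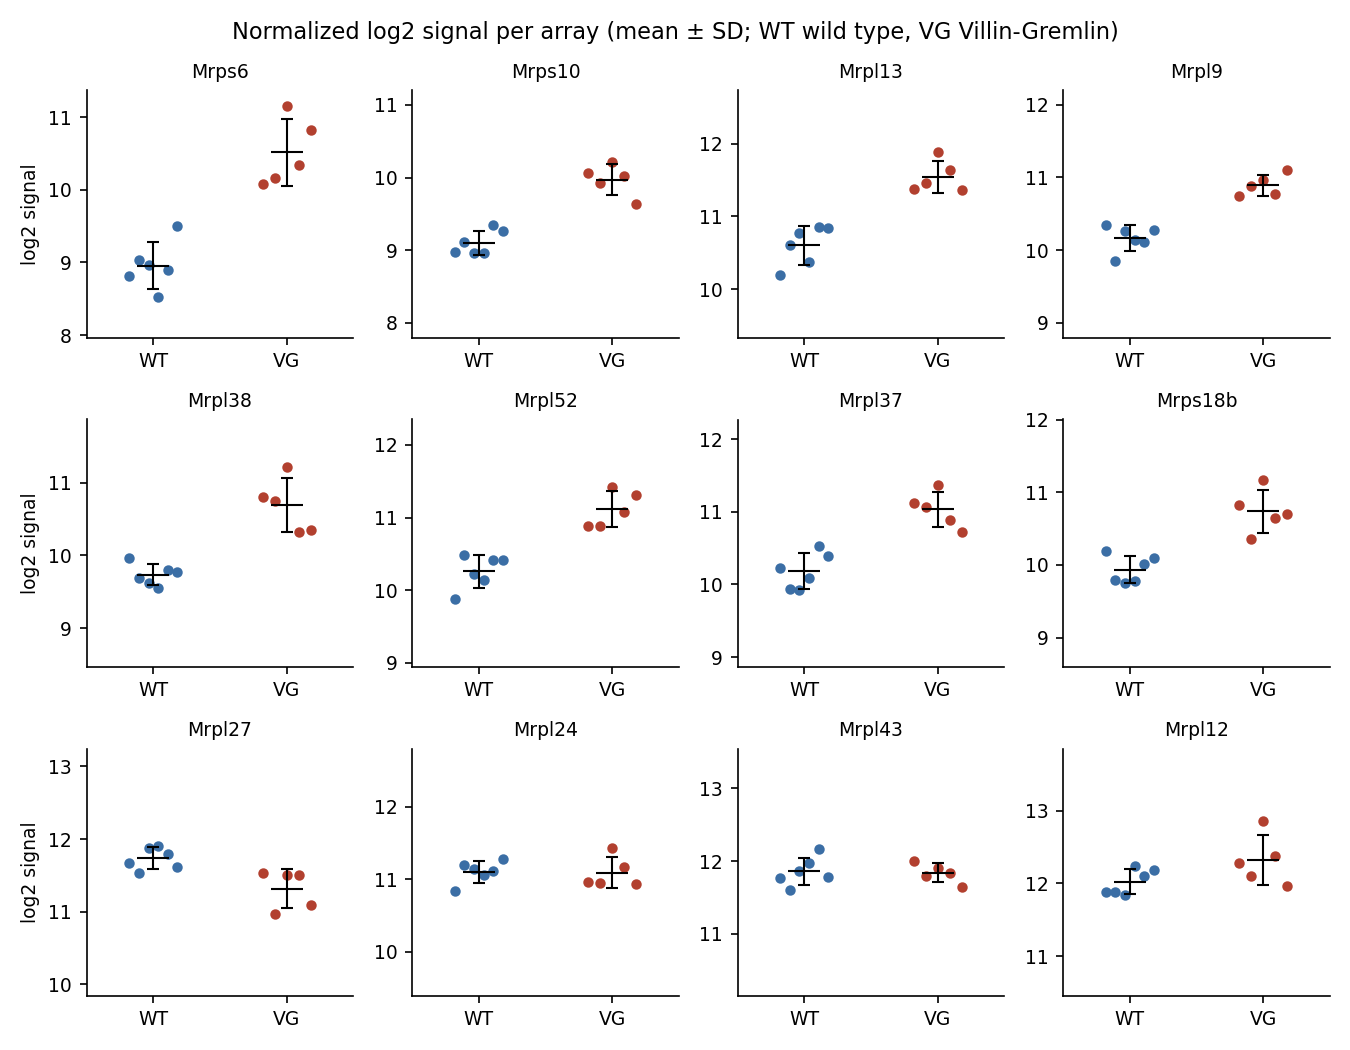
Normalized log2 signal (vertical axis, the same span in each panel) of 12 genes on the 6 wild type (blue) and 5 Villin-Gremlin (red) arrays, with black marks for the mean ± SD. The first 8 genes stand above wild type on every Villin-Gremlin array, Mrpl27 stands below, and Mrpl24, Mrpl43 and Mrpl12 overlap.

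The brightest members did not all move alike. Mrps24, of a bacterial family, was the brightest member, with a wild type mean of 12.18, and rose 1.47-fold (0.56 ± 0.13, limma adjusted p = 0.00535; 0.151 with median scaling), although Villin-Gremlin 5, at 12.41, lay just under wild type 6, at 12.43. Mrps33 differed by 0.08 (95% interval -0.21 to 0.37), Mrps31 by 0.27 (-0.03 to 0.58), Mrpl12, which recruits translation factors to the stalk, by 0.30 (-0.04 to 0.64) and Mrpl54 by 0.25 (-0.04 to 0.54); none of these passed. Mrpl33 rose 1.39-fold (0.47 ± 0.16, limma adjusted p = 0.0352), a call that was lost without Villin-Gremlin 3, 4 or 5 or wild type 4 or 5 (limma adjusted p = 0.0909, 0.0895, 0.0520, 0.0739 and 0.0608), and in several other settings (0.0550 to 0.250). Its wild type 4 array read 11.37, while the others ran from 11.71 to 11.90. Of the 23 brightest members 8 rose, with a median difference of 0.27, while of the 23 dimmest 14 rose, with a median of 0.50; the 2 level classes were not tested against each other.

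The 3 smallest differences belonged to large subunit genes, and the next to Mrps33. Mrpl24 read 10.96, 10.95, 11.43, 11.18 and 10.94 on the Villin-Gremlin arrays and 10.84 to 11.28 in wild type villi, a difference of -0.01 (95% interval -0.28 to 0.26). Mrpl43 differed by -0.02 (-0.28 to 0.24) on its brighter probe and by -0.01 on the other, and Mrpl4, which in bacteria lines the tunnel for the growing peptide, by 0.04 (-0.29 to 0.37). The smallest increase that passed, that of Mrps12, was 0.31, with a 95% interval of 0.08 to 0.54. This estimate lies above the upper bounds for Mrpl24 and Mrpl43 and within the interval of Mrpl4. The interval of Mrps12 overlaps those of all 3 genes, and its call was lost in 6 of the 11 fits that left out 1 array. Across the 33 genes that did not pass, differences ran from -0.02 to 0.76, 31 were above 0 and 2 below, and in 8 the 95% interval of the single gene left out 0. The 23 Mrpl genes among them lay between -0.02 and 0.50 and the 10 Mrps genes between 0.08 and 0.76, with Mrps27, a dim gene, at the top (0.76 ± 0.30, limma adjusted p = 0.0669).

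Several probes were kept for 24 of the genes, 59 probes in all. All probes of a gene passed in 8 of them and none in 12 (limma over 14203 kept probes, of which 30.8% passed). In Mrpl33, Mrps25, Mrps31 and Mrps7 some probes passed and others did not. The brightest probe of Mrps31 differed by 0.27 ± 0.15 while its other 2 probes rose by 0.53 ± 0.15 and 0.51 ± 0.16. Conversely, the brighter probe of Mrps7 rose by 0.58 ± 0.15 and the dimmer one differed by 0.45 ± 0.17. The 3 probes of Mrps25 lay between 0.52 and 0.56, of which the dimmest did not pass. Mrpl15 was the gene with probes of opposite sign, from -0.24 to 0.28 over 6 probes, none of which passed.

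Both subunits rose, the small subunit by the larger median. Over all genes tested 17.9% were higher and 15.98% lower. Of 27 Mrps genes 17 rose and 0 fell (63.0%, lowest difference 0.08), with a median of 0.55 or 1.46-fold. Of 44 Mrpl genes 20 rose and 1 fell (45.5% and 2.27%), with a median of 0.37 or 1.29-fold. The quartiles of the differences lay close, at 0.27 and 0.62 for Mrpl and 0.27 and 0.67 for Mrps genes. Mrps genes were also the dimmer set, with a median wild type level of 9.93 (log2) against 10.34. In mammalian ribosome structures Mrps18a and Mrps30 lie in the large subunit, and counting them there gave 22 of 46 higher with a median of 0.39 against 15 of 25 higher with a median of 0.55. Without background correction the medians were 0.29 and 0.35. Genes are not replicates and no test was run between the subunits, so these medians are set side by side as a description. With median scaling 9 of 44 Mrpl and 6 of 27 Mrps genes rose, shares that lay close together, beside 11.2% of all genes tested.

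Array by array the subunits moved together, and their order changed from array to array. The median deviation from the wild type mean over Mrpl genes was 0.48, 0.30, 0.68, 0.49 and 0.11 on Villin-Gremlin arrays 1 to 5, and -0.12 to 0.16 on wild type arrays. Over Mrps genes it was 0.55, 0.44, 0.64, 0.48 and 0.21, and -0.14 to 0.22 on wild type arrays. The Mrps median was the higher on 3 of the 5 Villin-Gremlin and 3 of the 6 wild type arrays. Array Villin-Gremlin 3 held the highest value of all 11 arrays for 42 of the 71 genes, and Villin-Gremlin 5 the lowest among the Villin-Gremlin arrays for 48. On Villin-Gremlin 5 the large and small subunit medians, 0.11 and 0.21, were below or level with those of wild type 6, 0.16 and 0.22. Leaving out Villin-Gremlin 5 gave 45 genes higher and 0 lower, beside 1531 higher and 1256 lower over all 8234 genes tested.

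**Figure D3:**
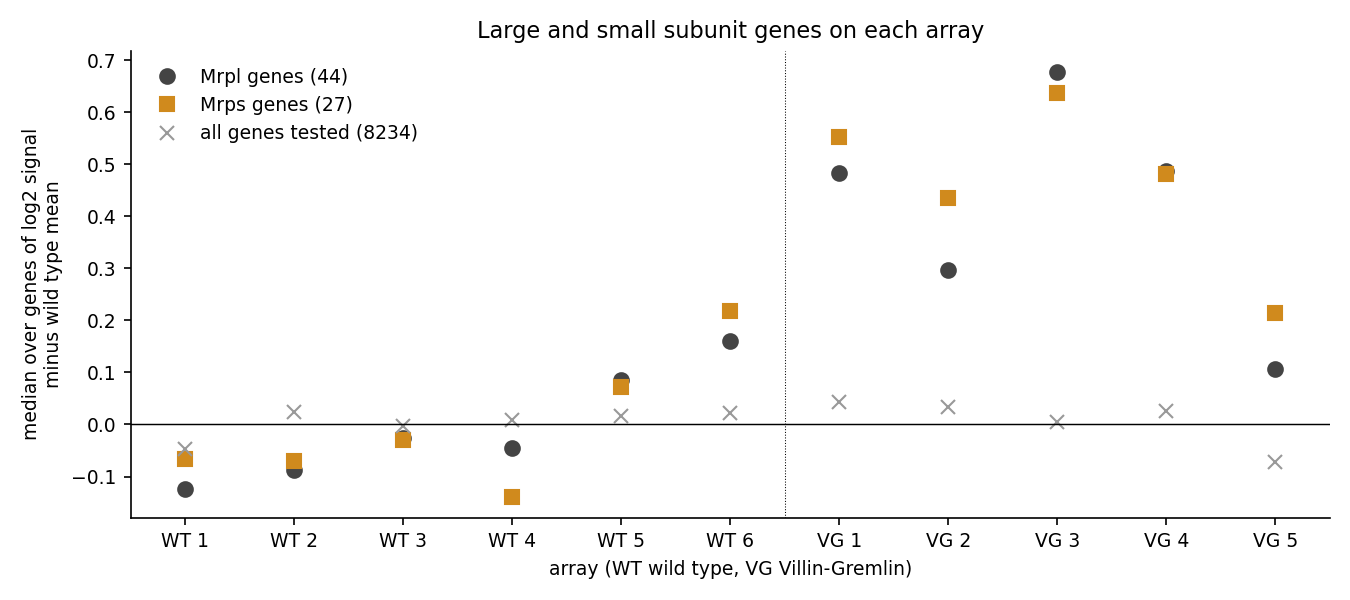
Median over genes of the log2 signal minus the wild type mean (vertical axis) on each of the 11 arrays, for Mrpl genes (circles), Mrps genes (squares) and all genes tested (crosses). Villin-Gremlin arrays 1 to 4 stand above all wild type arrays for both subunits, and Villin-Gremlin 5, at 0.11 and 0.21, lies within reach of wild type 6.

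Of 43 genes classed as members of bacterial families 23 rose and 1 fell (53.5% and 2.33%, median 0.39). Over all genes tested 17.9% were higher and 15.98% lower. Of 28 genes classed as specific to mitochondria, Mrps18a and Mrps18b among them, 14 rose and 0 fell (median 0.44). Within the small subunit by structure, 10 of 15 genes of bacterial families and 5 of 10 specific genes rose; within the large subunit these were 13 of 28 and 9 of 18.

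Promoter windows were read for 63 of the 71 genes from RefSeq (GRCm38.p6), 250 bases before to 30 bases after the gene start. NRF1 and ETS factors such as GABP are known regulators of nuclear genes for mitochondrial proteins, and YY1 and the GC box of Sp1 are common in such promoters. Both strands were searched for the NRF1 motif (GCGCA, any base, GCGC), the ETS motif (CCGGAAG), the YY1 motif (AA, any base, ATGGCGG) and the GC box (GGGCGG). The windows of the 5 genes of smallest p among those that rose and had a window are shown, with that of Mrpl27, to set genes that rose beside the gene that fell. They are printed in the direction of the gene, with motif matches in capitals.
Mrps6, chr16:92058086-92058365, plus strand: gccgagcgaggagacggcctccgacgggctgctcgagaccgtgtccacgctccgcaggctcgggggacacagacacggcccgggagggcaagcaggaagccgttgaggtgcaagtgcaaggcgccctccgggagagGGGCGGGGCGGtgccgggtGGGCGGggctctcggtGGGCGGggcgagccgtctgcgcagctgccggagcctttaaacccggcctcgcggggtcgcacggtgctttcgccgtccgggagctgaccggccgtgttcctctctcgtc
Mrps10, chr17:47368947-47369226, plus strand: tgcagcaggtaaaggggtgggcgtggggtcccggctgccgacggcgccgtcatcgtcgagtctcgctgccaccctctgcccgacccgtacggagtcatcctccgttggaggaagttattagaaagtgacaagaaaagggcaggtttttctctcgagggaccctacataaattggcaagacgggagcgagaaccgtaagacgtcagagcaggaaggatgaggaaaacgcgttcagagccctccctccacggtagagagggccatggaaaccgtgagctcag
Mrpl9, chr3:94443086-94443365, plus strand: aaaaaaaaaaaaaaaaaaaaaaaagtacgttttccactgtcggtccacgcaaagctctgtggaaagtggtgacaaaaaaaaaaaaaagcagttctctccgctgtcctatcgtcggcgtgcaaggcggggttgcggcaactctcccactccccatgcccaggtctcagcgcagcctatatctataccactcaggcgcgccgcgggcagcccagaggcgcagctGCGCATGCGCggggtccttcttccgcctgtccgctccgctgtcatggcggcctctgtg
Mrpl52, chr14:54426659-54426938, plus strand: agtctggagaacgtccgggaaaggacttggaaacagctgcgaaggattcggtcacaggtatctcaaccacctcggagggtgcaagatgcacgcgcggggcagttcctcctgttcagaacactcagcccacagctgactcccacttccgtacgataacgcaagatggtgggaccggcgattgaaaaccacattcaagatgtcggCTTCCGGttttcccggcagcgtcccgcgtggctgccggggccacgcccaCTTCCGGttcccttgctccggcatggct
Mrpl37, chr4:107066837-107067116, minus strand: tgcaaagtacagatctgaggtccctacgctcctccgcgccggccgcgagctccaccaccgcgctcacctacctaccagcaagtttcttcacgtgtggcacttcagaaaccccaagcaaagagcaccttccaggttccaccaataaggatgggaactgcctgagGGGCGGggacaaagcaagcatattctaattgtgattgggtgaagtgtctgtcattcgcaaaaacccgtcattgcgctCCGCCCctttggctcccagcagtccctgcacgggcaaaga
Mrpl27, chr11:94653541-94653820, plus strand: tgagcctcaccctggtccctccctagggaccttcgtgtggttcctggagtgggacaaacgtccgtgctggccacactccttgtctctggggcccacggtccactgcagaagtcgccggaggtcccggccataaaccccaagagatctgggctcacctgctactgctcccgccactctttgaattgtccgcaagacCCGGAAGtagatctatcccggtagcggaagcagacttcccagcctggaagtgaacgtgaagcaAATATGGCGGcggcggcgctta
The windows differ in what they hold. Mrps6 has 4 GC boxes, the first 2 sharing 1 base, and no other match. Mrps10 has no match, Mrpl9 has 1 NRF1 match, Mrpl52 has 2 ETS matches and Mrpl37 has 2 GC boxes. Mrpl27 has 1 ETS and 1 YY1 match. No motif of one kind overlapped one of another kind in these windows.

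Over the 63 genes with a window, 10 held the NRF1 letters (15.9%), 23 the ETS letters (36.5%), 5 the YY1 letters (7.94%) and 30 a GC box (47.6%). The shares over the windows of all 27025 genes in the table, noncoding genes included, were 4.98, 9.48, 1.14 and 37.3%. Over the 6760 tested genes with a window they were 11.4, 20.8, 2.69 and 67.9%. Among the 33 genes with a window that rose, 6 held NRF1 and 10 ETS letters, and among the other 30 these counts were 4 and 13. A match describes the letters only, and no test was run on these shares.

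Other nuclear genes of mitochondrial protein synthesis were counted against the same 17.9% higher and 15.98% lower of all genes tested. Of 3 measured mitochondrial ribosomal proteins with other names, Dap3, a GTP-binding protein of the small subunit, rose by 0.48 ± 0.11 (log2, SE; limma adjusted p = 0.00595; 0.177 with median scaling), while Chchd1 and Ptcd3 differed by 0.35 and 0.29. Of 13 translation factors 5 rose (38.5%) and 0 fell, with a median of 0.34. Tsfm, the exchange factor of the elongation factor Tufm, rose 1.85-fold (0.89 ± 0.15, limma adjusted p = 7.12e-04), the deformylase Pdf 1.78-fold and Mtres1 1.31-fold (limma adjusted p = 0.00287 and 0.0222); Tufm rose 1.47-fold. The count of translation factors was 2 without Villin-Gremlin 1 or 3 or with median scaling, and 3 without Villin-Gremlin 4 or wild type 1, 2 or 3. A count of 2 of 13 is near the share of all genes that rose without Villin-Gremlin 1, 1255 of 8234, so it is not read as a result about these genes.

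Enzymes that load mitochondrial tRNAs included the largest change of these lists. The list, named tRNA synthetases below, also holds Gatb, Gatc and Qrsl1, which are subunits of an amidotransferase and not synthetases. None of these passed. Of the 15 measured genes of the whole list 8 rose (53.3%) and 0 fell, with a median of 0.48. Of the 8, Wars2, Mars2 and Sars2 were above background on 1, 2 and 2 of the 6 wild type arrays and passed the filter mainly through the Villin-Gremlin arrays; 5 rose without them. Ears2, the glutamyl-tRNA synthetase of mitochondria, rose 4.71-fold (2.23 ± 0.15, limma adjusted p = 6.63e-07) and Vars2, for valine, 1.88-fold (0.91 ± 0.13, limma adjusted p = 2.45e-04). Wars2, for tryptophan, had mean levels of 6.46 and 5.97 (log2) in Villin-Gremlin and wild type villi, and its call was lost without background correction (limma adjusted p = 0.0716). The count was 5 with median scaling or with probes detected on all arrays.

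Of 18 assembly factors of mitochondrial ribosomes 5 rose (27.8%) and 0 fell (median 0.20), and 4 rose without Rcc1l, which passed the filter through the Villin-Gremlin arrays. With 17.9% of all genes tested higher, a count of 4 is near that share and is not read as a result about the list. Noa1, a GTPase, rose 1.98-fold (0.99 ± 0.16, limma adjusted p = 5.88e-04), and the pseudouridine synthase Rpusd4 1.65-fold (limma adjusted p = 6.30e-04). Rcc1l had mean levels of 6.48 and 5.66 (log2) in Villin-Gremlin and wild type villi, with 1 of the 6 wild type arrays above background. Of 19 genes of mitochondrial transcription and RNA processing 7 rose (36.8%) and 0 fell (median 0.25; 3 rose with median scaling). Top1mt, the mitochondrial topoisomerase, rose 3.63-fold (1.86 ± 0.32, limma adjusted p = 7.01e-04), Lrpprc, which stabilises mitochondrial messenger RNAs, 1.94-fold and the transcription factor Tfb2m 1.68-fold (limma adjusted p = 0.00183 and 0.00401). Polrmt, the mitochondrial RNA polymerase, differed by 0.01 (95% interval -0.37 to 0.39) and Tfam, which packages mitochondrial DNA, by -0.17 (-0.42 to 0.08).

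Transcripts made inside mitochondria did not pass the test. Of 7 measured genes of mitochondrial DNA 0 passed (limma; 0 also at an unadjusted p under 0.05), and the median difference was -0.01. ND4, CYTB, ND1, COX2 and ATP6, with wild type means of 14.2 to 14.8 (log2), differed by -0.08, -0.02, -0.02, -0.01 and 0.06, each with a 95% interval inside -0.33 to 0.33. Whether signals this bright respond fully to a change in amount was not tested. The dim ND6 probe differed by 0.53 ± 0.33 and passed when wild type 1 was left out (0.81, limma adjusted p = 0.0153), also when Villin-Gremlin 5 was left out with it (0.69, 0.0321).

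Of 8 measured regulators of mitochondrial biogenesis 1 rose and 1 fell (12.5% each). These counts are near the shares of all genes tested and are not read as a result about the list. Pprc1, a coactivator related to PGC-1, had mean levels of 6.91 and 5.72 (log2) in Villin-Gremlin and wild type villi (limma adjusted p = 5.80e-04). With 1 of the 6 wild type arrays above background, it passed the filter through the Villin-Gremlin arrays, and no size is given. Ppargc1a, which encodes the coactivator PGC-1 alpha, fell by 0.91 on the log2 scale (limma adjusted p = 0.0238), a call lost without wild type 5 (0.0501 by limma). Array Villin-Gremlin 5 was low at 9.19, the 4 others of that group reading 10.61 to 11.08, and without it the gene fell by 0.59 on the log2 scale (limma adjusted p = 0.0137). Nrf1, Gabpa and Gabpb1 differed by -0.02, 0.03 and 0.03. T cell markers and mitosis genes shifted between the groups alongside each of these lists, as given above.

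Cytosolic ribosomal protein genes rose further than the mitochondrial ones. Of 53 measured members, 48 rose (90.6%) and 0 fell, beside 17.9% higher and 15.98% lower over all genes tested. The median was 0.91, against 0.39 for the mitochondrial set, and the difference between the sets was not tested. The cytosolic set was taken by symbol and also holds the related genes Rpl22l1, Rpl7l1, Rps27l and Rps4l. On Villin-Gremlin 5 the cytosolic median deviation was 1.12, the highest of the 5 arrays, while the mitochondrial median was 0.19, the lowest. Probes of cytosolic ribosomal protein genes can share sequence with processed pseudogenes, so single values for them are left aside.

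**Figure D4:**
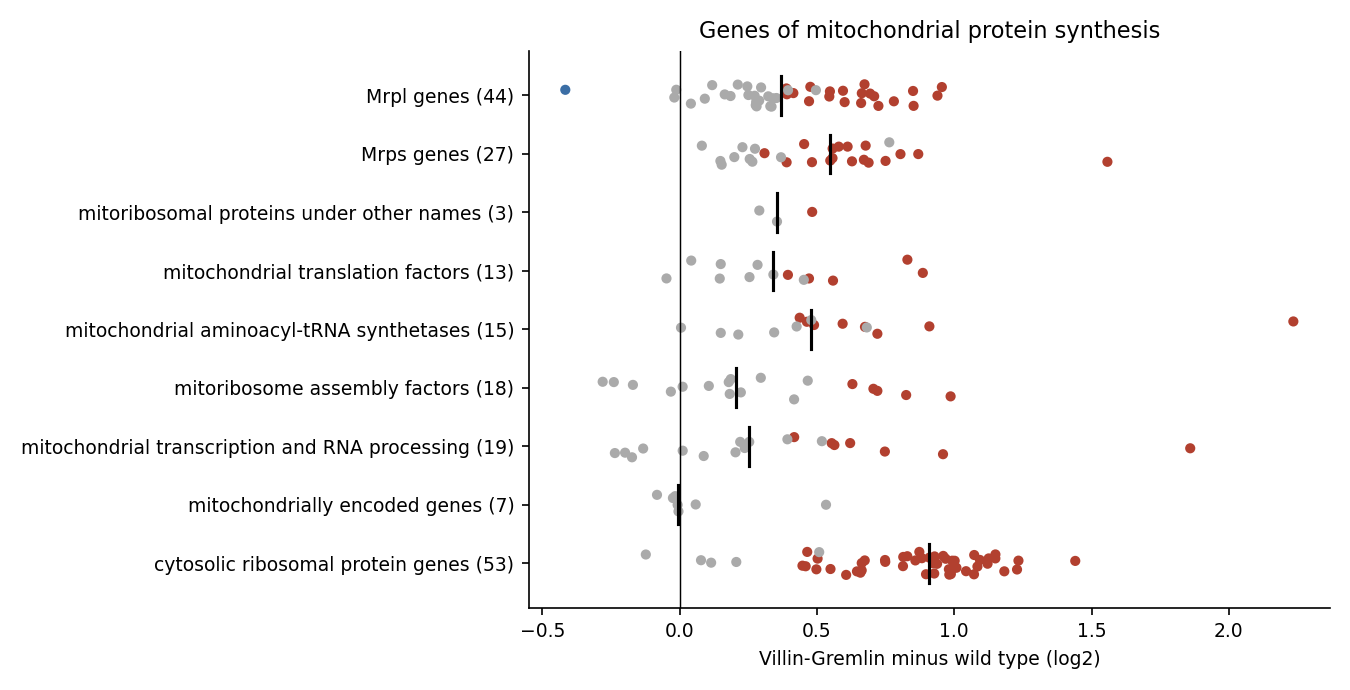
Difference between Villin-Gremlin and wild type villi (log2, horizontal axis) for each measured gene of the listed sets, with the number of genes in brackets; red points rose, the blue point fell and grey points did not pass, and black bars mark the medians. Medians stand at 0.37 and 0.55 for Mrpl and Mrps genes, at -0.01 for mitochondrially encoded genes and at 0.91 for cytosolic ribosomal protein genes.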

How the data were processed

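Illumina bead arrays measured total RNA of villi on 11 arrays. Per the file headers, the deposited signal table holds mean bead intensity values on a linear scale and detection p-values for 45281 probes; the lowest intensity was 119, so no background was subtracted. A deposited table of the authors' log2 values (column medians 5.04 to 5.13) gives no method and was an alternative. The platform annotation named 34885 probes with 1 gene symbol, 18 with several and left 10378 unnamed; no symbol was taken from a probe with several.

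Signals were background-corrected and quantile normalized with neqc (offset 16) of limma 3.58.1 in R 4.3.3. The 14203 probes with detection p under 0.01 on at least 5 arrays gave 8234 genes, fitted with lmFit and eBayes and adjusted by Benjamini-Hochberg. Precision is limited by the number of arrays. Gene members, lists and named-gene rule (15 smallest p in each direction, the 3 brightest per subunit, the 3 smallest differences, genes whose probes were called differently, 3 of smallest p per list; others were named to account for all members; Mrps18c, Mrpl15, Mrps27, Tufm, Polrmt, Tfam and the remaining list genes with values were named after their values were seen) were chosen with earlier results of these data known. Alternatives were background, offset, scaling, filter, probe choice, weights, variance prior, replicate block, subunit by structure and arrays left out. Replicate numbers of the titles did not pair samples: same-numbered deviations correlated at -0.20 to 0.11. Array names number the Villin-Gremlin samples differently from the titles, and pairing by those names was not checked.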

Additional observations from a re-analysis of the deposited data

Results flagged for a closer look

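A screen of 102 groups of values for 1 array far from the rest of its group found 3. Chance alone gives about 1 in 20 groups, so 3 of 102 is no more than chance would give. Mrpl33 read 11.37 (log2) on wild type 4, and 11.71 to 11.90 on the other wild type arrays. Noa1, an assembly factor, read 8.21 on wild type 6, and 7.60 to 7.78 on the others. For Ppargc1a array Villin-Gremlin 5 gave 9.19 and the rest of its group 10.61 to 11.08.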

How the results depend on the processing

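The number of arrays limits every count here. Median scaling moved most: 16 genes passed (15 higher), of them 10 Mrpl and 6 Mrps; all 16 were among the 38, and 0 of the 38 changed direction. Lists under median scaling gave 0 of the ribosomal proteins with other names, 2 translation factors, 5 tRNA synthetases and 3 transcription and RNA processing genes; the cause was not tested. Detection on all arrays, which tests fewer genes, gave 5 tRNA synthetases, and it and no detection filter each gave 1 biogenesis regulator. Without background correction the Mrps median was 0.35. The replicate block gave 32 genes (31 higher), 17 Mrpl and 15 Mrps, 3 translation factors and 1 regulator, and is not read as pairing. The other settings gave 33 to 44 genes.

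With each array left out in turn, 30 to 45 genes passed (29 to 45 higher), 17 to 27 Mrpl and 12 to 18 Mrps, with medians of 0.30 to 0.46 and 0.44 to 0.60, and 29 of the 38 kept their call every time. These fits gave 2 to 6 translation factors, 6 to 11 tRNA synthetases, 5 to 8 transcription and RNA processing genes, 1 to 2 regulators and 0 to 1 genes of mitochondrial DNA, and without both Villin-Gremlin 5 and wild type 1 the last count was 1.

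Among the genes given across all settings, the following signs turned, and no turned value passed. Mrps33 and Mrpl4 were at -0.0440 and -0.0675 with median scaling, Mrpl24 at 0.0225 with the replicate block, Mrpl43 at 0.0093 with array weights and at the same value without both named arrays, ND4 at 0.0136 in the authors' log2 values and ATP6 at -0.0042 with array weights. With 1 array left out, Mrpl24 ran from -0.0958 to 0.0258, Mrpl43 from -0.0692 to 0.0419, Mrpl4 from -0.0371 to 0.1134 and ATP6 from -0.0143 to 0.1264.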
